A study of Saccharomyces cerevisiae with 4 samples.

Results

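This account is about 10 genes that govern the making of methionine and S-adenosylmethionine in the budding yeast Saccharomyces cerevisiae: the regulators MET4, MET28, MET30, MET31 and MET32, and the enzyme genes MET2, MET6, SAM1, SAM2 and STR3. They were chosen by name for their roles, with earlier results of these data known, and were read from the probe sets annotated to them. Each of the 10 has 1 probe set, out of 5449 S. cerevisiae genes on the array, and all 10 were bright enough to be among the 5335 genes tested.

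NBRC1950, a strain named for a Japanese culture collection, was compared with X2180, a laboratory strain of the S288C lineage from which the reference genome comes. Both strains were grown with shaking in YPD, a rich glucose medium that supplies methionine, and were measured without a treatment. Messenger RNA from independent duplicate cultures was hybridised to 4 arrays of the Affymetrix Yeast Genome 2.0 type, 2 with NBRC1950 RNA and 2 with X2180 RNA. The labels give no genotype beyond the strain names, no ploidy, no growth phase and no cell density, and the title of the series ties ergosterol content to how well yeast stands vanillin, an inhibitory aldehyde. The question put to these genes is whether their transcripts differ between the strains in untreated cultures.

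Yeast takes up sulfate, reduces it to sulfide and joins the sulfide to an activated form of homoserine, which gives homocysteine. Homocysteine is methylated to methionine, methionine is activated to S-adenosylmethionine, and the methyl group is passed on to lipids, proteins and RNA, after which homocysteine is recovered. Met4 activates the genes of this route but does not bind DNA by itself: Cbf1 with Met28, or Met31 and Met32, bring it to promoters. Met30, the substrate-binding part of an SCF ubiquitin ligase, marks Met4 with ubiquitin when methionine and cysteine are plentiful.

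Signals here are the deposited intensities scaled so that the median S. cerevisiae probe set has the same value on every array. Differences are NBRC1950 minus X2180 on the log2 scale, and a gene is called at an adjusted p under 0.05 in limma. The deposited medians were 983 and 1171 on the NBRC1950 arrays and 894 and 964 on the X2180 arrays, and between 5248 and 5315 of the tested genes lay above background on each array. Of all genes tested, 47.2% were called, 20.3% as higher and 26.8% as lower in NBRC1950. The median gene stood at -0.05, at 0.16 without further scaling, at 0.02 with quantile normalization and at 0.50 when arrays were brought to one median over all probe sets, those of other species included (called scaling to all probe sets from here on). Called genes were higher in NBRC1950 in 43.1% of cases with the scaling used here, and in 70.5%, 52.0% and 92.4% with those 3. Probes that mismatch NBRC1950 sequence could not be masked, so a lower signal in that strain can also be a difference of sequence. In RNA of whole cultures, fewer cells with a transcript and less of it per cell cannot be told apart.

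Some other measures moved with the strains. The array's 17 ribosomal RNA controls were all dimmer in NBRC1950, with a mean difference of -1.10 and an SD over the controls of 0.32. The 3' signal of SRB4, a measure of RNA integrity, exceeded its 5' signal. The log2 excess was 2.66 and 2.83 in NBRC1950 against 2.05 and 2.18 in X2180. For ACT1 it was 0.33 and 0.31 in NBRC1950 against 0.20 and 0.26 in X2180. The strains overlapped for SPT15, at 1.10 and 1.09 in NBRC1950 against 1.08 and 1.18 in X2180. They also overlapped for WBP1, at 0.90 and 0.93 in NBRC1950 against 0.95 and 0.81 in X2180. Of 12 genes of mating and haploid cells, 11 were tested and 7 were lower in NBRC1950 (4 without X2180 replicate 1, X2180 replicate 2 or NBRC1950 replicate 1). Among all genes 20.3% were higher and 26.8% lower with the scaling used here. With each of the 3 other scalings 2 of the mating and haploid genes were lower, of 10 tested when scaled to all probe sets and 12 otherwise. Among all genes 325 of 5322 were lower when scaled to all probe sets. The number was 389 of 5338 without further scaling and 1197 of 5339 with quantile normalization. When scaled to all probe sets 2 of the mating and haploid genes were higher, where 3971 of 5322 genes were. With quantile normalization 1 was higher, where 1295 of 5339 genes were. The summed signal of the mating and haploid genes was 642 to 656 in NBRC1950 against 1061 to 1197 in X2180. The pheromone receptor gene STE3, 1 of them, lay below background on both NBRC1950 arrays. Of 12 genes of stress and of growth after glucose, 4 were higher and 1 was lower. The counts were 9 and 1 when scaled to all probe sets, where 3971 and 325 of 5322 genes were. The summed signal of the 12 was 9025 to 9348 in NBRC1950 against 8780 to 9061 in X2180. The part of these differences in the results below was not tested.

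Transcripts of the route to methionine were higher in NBRC1950 for 5 of the 10 genes (MET2, MET32, SAM2, MET6 and MET30). STR3 was lower, and MET28, MET4, MET31 and SAM1 did not pass the threshold. The share higher was 5 of 10, set beside the 20.3% of all genes, and the share lower was 1 of 10, set beside 26.8%. The median difference of the 10 was 0.38. The signals of the strains did not overlap for any of the 10, which was the case for 75.6% of all genes.

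**Figure D1:**
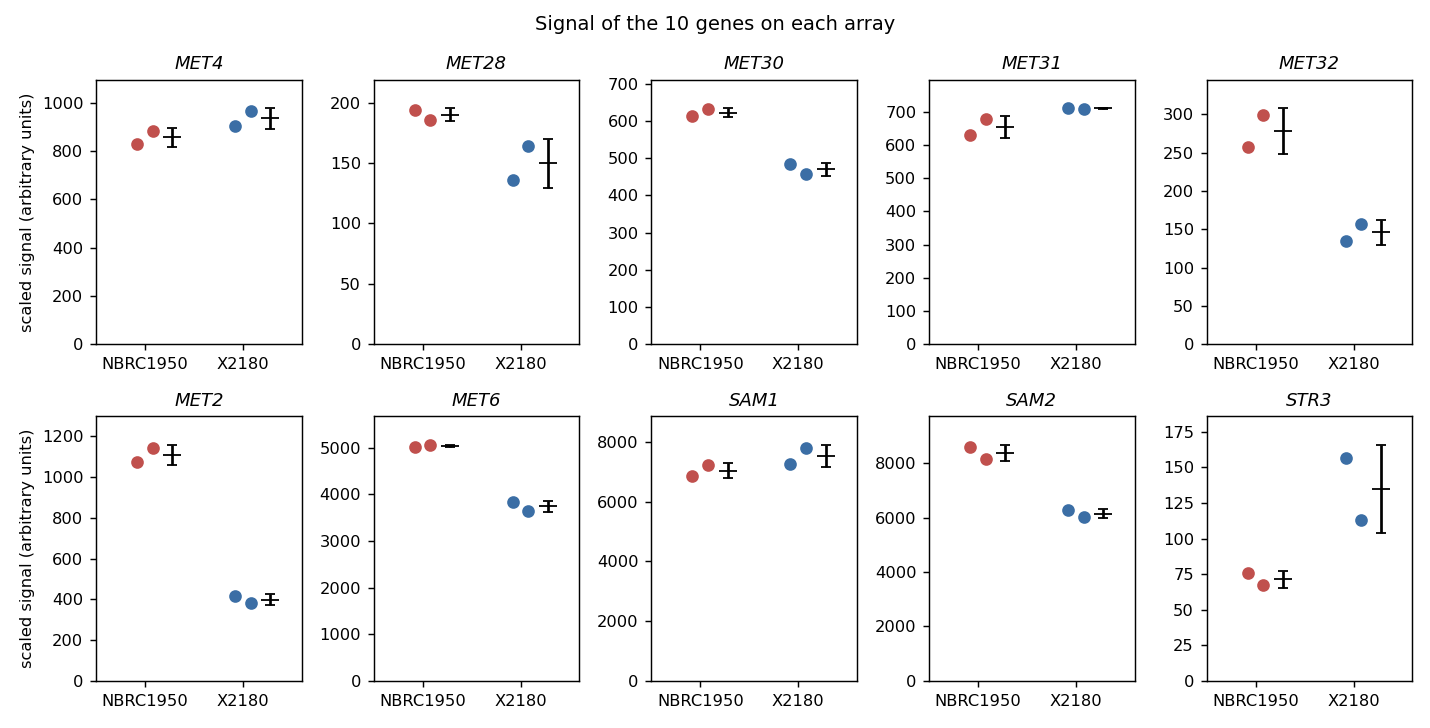
Scaled signal (vertical axes from 0, arbitrary units, a scale of its own for each gene) of the 10 genes on each array, NBRC1950 in red and X2180 in blue, with the mean and SD of the 2 arrays of a strain in black. MET2 is at 1073 and 1143 in NBRC1950 against 417 and 380 in X2180, whereas the points of SAM1, MET4 and MET31 lie close together. STR3 is lower in NBRC1950, with its X2180 arrays far apart.

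Among the regulators, MET32 differed most. MET32 (YDR253C, chromosome IV) encodes a zinc-finger protein that brings Met4 to promoters. Its signal was 257 and 300 in NBRC1950 against 135 and 157 in X2180. Both NBRC1950 arrays lay well above both X2180 arrays, by 0.71 on the log2 scale at the closest, while arrays of one strain differed by 0.22. The difference was 0.93 ± 0.14 (SE; limma adjusted p = 0.00151), or 1.91-fold. Of the 532 genes within 5 percentiles of its brightness, 16.4% differed by at least as much in either direction.

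MET31 (YPL038W, chromosome XVI), the paralogue of MET32 with a related role, did not pass the threshold. Its signal was 631 and 679 in NBRC1950 against 711 and 710 in X2180. The NBRC1950 arrays were slightly the lower, at -0.12, with a 95% interval from -0.31 to 0.07 (limma adjusted p = 0.270). The log2 ratio of MET31 to MET32 within an array was 1.30 and 1.18 in NBRC1950 against 2.40 and 2.17 in X2180, a change of -1.05. An exact two-sided permutation test of this ratio gave p = 0.333, the smallest that 2 arrays against 2 allow. The ratio uses values of the same array and does not depend on a scaling factor. Only its change between strains can be read, since probe sets of different genes give signals that cannot be compared.

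MET30 (YIL046W, chromosome IX), which encodes the F-box protein that directs Met4 to ubiquitination, was higher in NBRC1950. Its signal was 613 and 631 in NBRC1950 against 483 and 458 in X2180. Arrays of one strain were within 0.08 of each other on the log2 scale, and the strains stood 0.35 apart at the closest. Of the 532 genes of like brightness, 28.8% differed between the strains by at least as much as MET30. The difference was 0.40 ± 0.09 (SE; limma adjusted p = 0.00696), or 1.32-fold, and its adjusted p reached 0.0465 when single arrays were left out.

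MET4 itself (YNL103W, chromosome XIV), the activator, had signals of 831 and 885 in NBRC1950 against 906 and 967 in X2180. The strains were separated by only 0.04 on the log2 scale at the closest, less than the 0.09 between arrays of either strain. Its difference was -0.13, with a 95% interval from -0.31 to 0.06 (limma adjusted p = 0.226). These arrays measure transcripts, and the ubiquitination by which Met4 activity is known to be set is not visible in them.

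MET28 (YIR017C, chromosome IX), a leucine-zipper protein that stabilises Met4 on DNA together with Cbf1, had signals of 194 and 186 in NBRC1950 against 136 and 164 in X2180. Both NBRC1950 arrays were above both X2180 arrays. The X2180 arrays lay 0.27 apart on the log2 scale, however, which is more than the 0.18 between the closest arrays of the strains. The difference of 0.35 ± 0.14 (SE) did not pass (limma adjusted p = 0.0817, 95% interval from 0.01 to 0.68). It passed as higher under quantile normalization, at 0.51 (limma adjusted p = 0.0250), and with scaling to all probe sets, at 0.90.

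**Figure D2:**
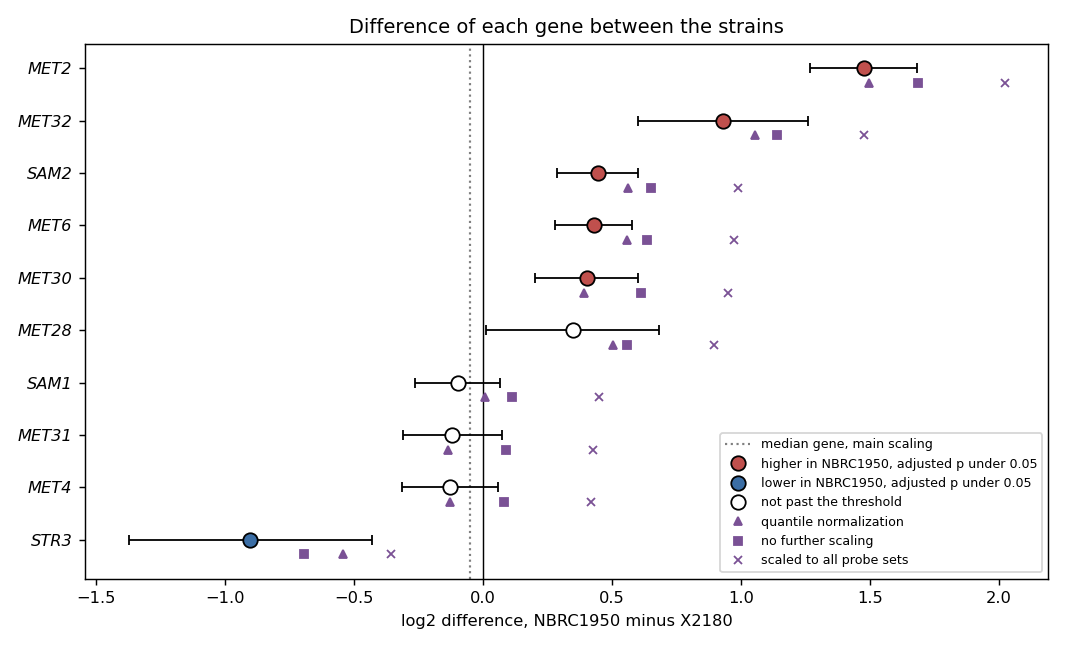
Log2 difference between strains (horizontal axis, NBRC1950 minus X2180) of the 10 genes, with 95% intervals from limma as black bars; filled circles passed the threshold, and purple marks give the value under 3 other scalings. MET2, MET32, SAM2, MET6 and MET30 stay right of 0 and STR3 left of it under every scaling drawn, whereas SAM1, MET31 and MET4 change side.

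Of the enzymes, MET2 had the largest difference of all 10 genes. MET2 (YNL277W, chromosome XIV) encodes homoserine O-acetyltransferase, which activates homoserine so that it can take up sulfide. Its signal was 1073 and 1143 in NBRC1950 against 417 and 380 in X2180. No other member had strains so far apart: the closest arrays differed by 1.36 on the log2 scale, against 0.09 and 0.14 within NBRC1950 and X2180. The difference was 1.48 ± 0.09 (SE; limma adjusted p = 1.80e-05), or 2.78-fold. A call with a difference of at least 2-fold was made for 7.54% of all genes, 2.66% as higher. By size it ranked 218th among the 5335 genes in either direction, and 2.07% of the 532 genes of like brightness differed by at least as much.

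With the scaling used here, the neighbours of MET2 on the chromosome were lower in NBRC1950. Flanking genes were not followed under the other scalings or with arrays left out. The open reading frame before it, YNL277W-A, stood at -1.41 (limma adjusted p = 0.00779), and BOR1, a boron transporter gene after it, at -0.31 (limma adjusted p = 0.0322). Of the 20 genes that flank the 10 members, 19 were tested, of which 3 were higher and 6 lower in NBRC1950. Among all genes 20.3% were higher and 26.8% lower. The 3 higher neighbours were POL1 beside MET4 at 0.46, PIG2 beside MET30 at 0.45 and YLR179C beside SAM1 at 0.38. Of the neighbours of MET32, BTT1 stood at -0.04 and CHL4 at -0.44, and neither passed. Those of SAM2, PLM2 at -0.41 and LPP1 at -0.16, did not pass either.

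MET6 (YER091C, chromosome V), the methionine synthase that methylates homocysteine with a folate donor and without cobalamin, had signals of 5018 and 5057 in NBRC1950 against 3831 and 3652 in X2180. The arrays of each strain nearly coincided and the strains were clearly apart. The difference was 0.43 ± 0.06 (SE; limma adjusted p = 0.00136), or 1.35-fold. Of genes of like brightness, 56.0% were called, more than among all genes, and 23.9% differed by at least as much.

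S-adenosylmethionine synthetase, which activates methionine to the methyl donor of the cell, is encoded by SAM1 and SAM2. SAM2 (YDR502C, chromosome IV) had signals of 8589 and 8156 in NBRC1950 against 6265 and 6035 in X2180. Both NBRC1950 arrays lay above both X2180 arrays, with a difference of 0.44 ± 0.07 (SE; limma adjusted p = 0.00143), or 1.36-fold. Of the 532 genes of like brightness to SAM2, 35.0% were called, fewer than among all genes, and 11.3% differed by at least as much.

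SAM1 (YLR180W, chromosome XII) had signals of 6857 and 7221 in NBRC1950 against 7263 and 7791 in X2180. The highest NBRC1950 array and the lowest X2180 array were only 0.01 apart on the log2 scale. The difference was -0.10, with a 95% interval from -0.26 to 0.07 (limma adjusted p = 0.293). The log2 ratio of SAM1 to SAM2 within an array was -0.32 and -0.18 in NBRC1950 against 0.21 and 0.37 in X2180, a change of -0.54 (exact two-sided permutation p = 0.333, again the smallest possible). The 2 synthetase genes are similar in sequence, and how far their probe sets pick up each other was not examined.

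STR3 (YGL184C, chromosome VII), the cystathionine beta-lyase that turns cystathionine made from cysteine into homocysteine, was the only member called as lower in NBRC1950. Its signal was 75.6 and 67.3 in NBRC1950 against 157 and 113 in X2180, above the background level of 14.9 to 18.2 on every array. The strains did not overlap, but the X2180 arrays were 0.47 apart on the log2 scale, the widest gap between arrays of one strain among the 10 genes. The difference was -0.90 ± 0.20 (SE; limma adjusted p = 0.00861, 95% interval from -1.37 to -0.43). With single arrays left out it ranged from -1.14 to -0.66, with an adjusted p up to 0.0496. The call was lost under quantile normalization, at -0.54 (limma adjusted p = 0.0883), and with scaling to all probe sets, at -0.35 (limma adjusted p = 0.102). Of the 532 genes of like brightness to STR3, 27.8% differed by at least as much with the scaling used here.

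**Figure D3:**
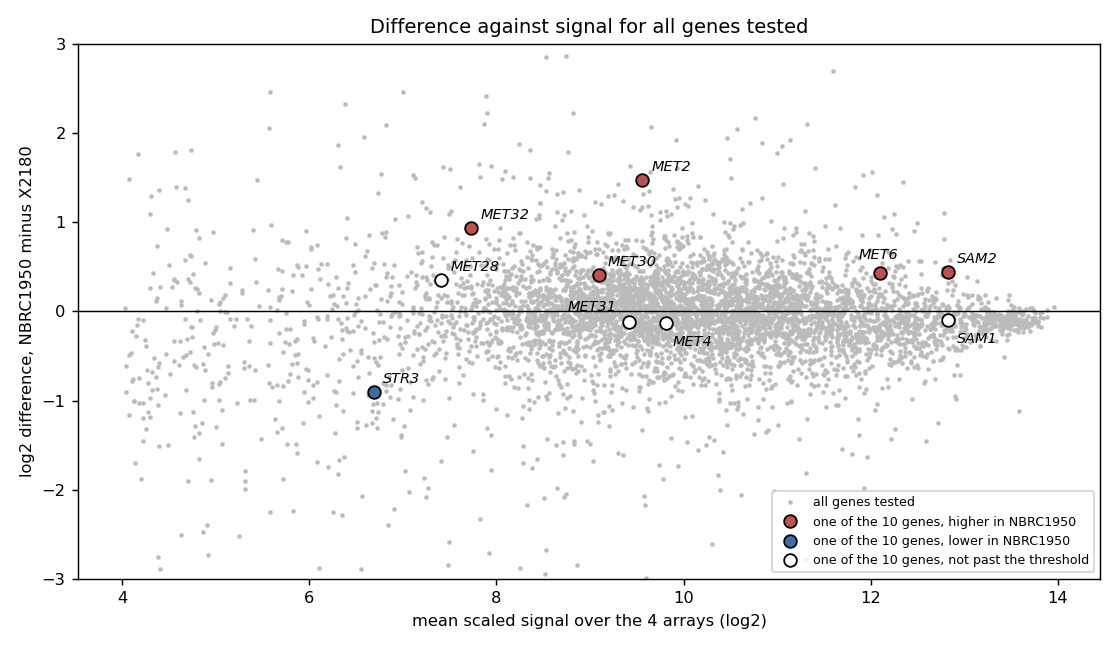
Log2 difference between strains (vertical axis, NBRC1950 minus X2180) against mean scaled signal (horizontal axis, log2) for all 5335 genes tested in grey, of which 73 lie outside the axis limits of -3 and 3, with the 10 genes named. The grey cloud narrows towards bright genes, where MET6 and SAM2 lie in its upper part, and MET2 stands above most genes of its brightness.

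The other genes of the pathway, taken from lists of textbook roles, went different ways by step. Sulfate uptake and reduction, the supply of sulfide, had 6 of 10 genes higher and 2 lower in NBRC1950, with a median of 0.32, beside 20.3% and 26.8% of all genes. MET3, the ATP sulfurylase of the first step, was higher by 0.89 ± 0.08 (SE; limma adjusted p = 0.000101), with signals of 1025 and 1071 in NBRC1950 against 564 and 571 in X2180. SUL2, a sulfate permease, was higher by 0.55. MET8, which makes the siroheme of sulfite reductase, was lower at -0.72, as was MET22, a phosphatase of the by-product of sulfate reduction, at -0.71. Only 3 genes of the list were higher without X2180 replicate 1 or X2180 replicate 2, and 4 without NBRC1950 replicate 2. Under no further scaling 5 were higher, beside 928 of 5338 genes, and neither MET8 (limma adjusted p = 0.0797) nor MET22 (0.0568) passed. Scaled to all probe sets 7 were higher and 0 lower, beside 3971 and 325 of 5322 genes. There MET8 and MET22 both stood at -0.17 (limma adjusted p = 0.286 and 0.148).

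The 4 genes that make homoserine and pass it on to threonine were all lower in NBRC1950, whereas MET2, which uses homoserine, was higher. Among all genes 26.8% were lower. THR1, the homoserine kinase that draws it towards threonine, stood at -0.48, HOM2 at -0.38, HOM6 at -0.33 and HOM3, the aspartate kinase, at -0.29. Their direction depended on the scaling: the list median was -0.35, whereas scaling to all probe sets put it at 0.19 and all 4 genes above 0. Relative to the median gene it was -0.31 with either scaling. Without further scaling the 4 genes stood below 0 but did not pass in limma. Leaving out NBRC1950 replicate 1 ended the calls of HOM3 (limma adjusted p = 0.0839) and HOM6 (0.0849), and leaving out NBRC1950 replicate 2 those of HOM2 (0.0501) and HOM6 (0.0931), so that 2 of the 4 remained called in each case.

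Of the 4 other genes around homocysteine and cysteine, 3 were lower and 1 higher, beside 26.8% and 20.3% of all genes. In limma none of the 4 was called without further scaling (adjusted p from 0.128 to 0.569), where 928 of 5338 genes were higher and 389 lower. Scaled to all probe sets 1 was higher and 0 lower, beside 3971 and 325 of 5322 genes. MET17, the sulfhydrylase that joins sulfide to the product of MET2, was lower, with signals of 4427 and 4719 in NBRC1950 against 6826 and 7350 in X2180, a difference of -0.63 ± 0.07 (SE; limma adjusted p = 0.000373). It was not called when scaled to all probe sets (-0.09) or without further scaling (-0.42). STR2 at -0.43 and CYS4, the cystathionine beta-synthase, at -0.40 were lower too, and had 0.12 and 0.14 when scaled to all probe sets. CYS3, the cystathionine gamma-lyase, was higher by 0.22 (limma adjusted p = 0.0270). Its adjusted p was 0.0550 without X2180 replicate 2, 0.128 without NBRC1950 replicate 1, 0.231 without NBRC1950 replicate 2, and it was 0.0617 without the eBayes trend.

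Of 17 genes that regenerate the methyl cycle and supply its one-carbon units, 1 was higher and 6 were lower in NBRC1950, beside 20.3% and 26.8% of all genes, with a median of -0.08, where all genes had -0.05. Scaling to all probe sets made 14 higher and 3 lower, beside 3971 and 325 of 5322 genes. Without further scaling 0 were higher and 3 lower, beside 928 and 389 of 5338 genes. SAH1, which splits S-adenosylhomocysteine and so returns homocysteine, was at 0.04 (95% interval from -0.12 to 0.19, limma adjusted p = 0.655). MET13, the main methylenetetrahydrofolate reductase that provides the methyl donor of MET6, was lower, with signals of 153 and 166 in NBRC1950 against 301 and 304 in X2180, a difference of -0.93 ± 0.12 (SE; limma adjusted p = 0.000601). MET12, the other gene for this reductase, was the 1 higher gene of the list, at 0.28 (limma adjusted p = 0.0103). It was not called without further scaling. GCV2 and GCV1, subunits of the glycine cleavage complex, were lower at -1.10 and -0.81, and the call of GCV1 was lost without X2180 replicate 1 (limma adjusted p = 0.0538). FOL2, of folate synthesis, was lower at -0.31, had 0.23 when scaled to all probe sets, and lost its call without X2180 replicate 2 (0.0529) or NBRC1950 replicate 1 (0.104). The number of lower genes was 3 without X2180 replicate 1 or NBRC1950 replicate 1.

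**Figure D4:**
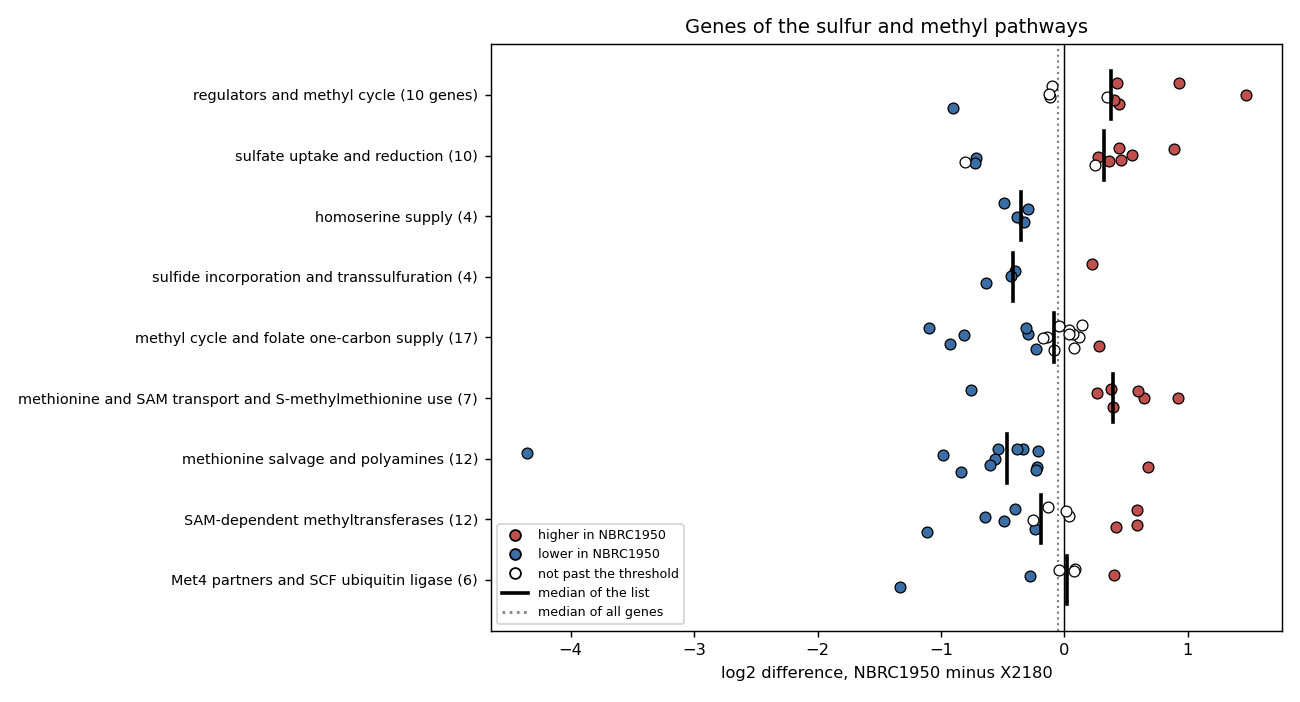
Log2 difference between strains (horizontal axis, NBRC1950 minus X2180) of each gene in the 10-gene group and in 8 lists of the sulfur and methyl pathways (rows, number of genes in brackets), with the list median as a black bar and the median of all genes as a dotted line. The points of sulfate uptake and reduction and of transport lie mostly to the right, and those of homoserine supply and of methionine salvage mostly to the left, with ARO9 at -4.36.

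Transporters of methionine and its derivatives were higher in NBRC1950. Of 7 genes of uptake and of S-methylmethionine use, 6 were higher and 1 lower, beside 20.3% and 26.8% of all genes, with a median of 0.39. The counts were 6 and 0 when scaled to all probe sets, beside 3971 and 325 of 5322 genes. They were 5 and 1 without further scaling, beside 928 and 389 of 5338 genes. With any single array left out fewer of the list were called as higher, and the list median ranged from 0.36 to 0.49. MMP1, the S-methylmethionine permease, was higher by 0.92, and MHT1, the methyltransferase that uses its substrate to methylate homocysteine, by 0.59. MUP3, a low-affinity methionine permease, was higher by 0.65, a call that was lost without X2180 replicate 2 (limma adjusted p = 0.0646). SAM4, which methylates homocysteine with S-adenosylmethionine, was lower, with signals of 3835 and 3696 in NBRC1950 against 6271 and 6447 in X2180, a difference of -0.76 that was not called when scaled to all probe sets (-0.21, limma adjusted p = 0.0735).

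Genes of methionine salvage and polyamine synthesis were lower for 11 of 12, beside 26.8% of all genes, with a median of -0.46. Scaling to all probe sets put that median at 0.08 and left 3 lower and 4 higher, where 325 and 3971 of 5322 genes were. Without further scaling 3 were lower, where 389 of 5338 genes were. Relative to the median gene the list median was -0.41 with each of these scalings. ARO9, an aromatic aminotransferase that can also form methionine in salvage, had signals of 66.8 and 79.7 in NBRC1950 against 1526 and 1462 in X2180, a difference of -4.36 ± 0.12 (SE; limma adjusted p = 2.87e-07). BAT2, a branched-chain aminotransferase, was lower at -0.98 and UTR4, an enolase-phosphatase of salvage, at -0.83. ADI1, the dioxygenase that acts after UTR4, was the 1 higher gene, at 0.68. The number of lower genes was 7 without NBRC1950 replicate 2.

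Of 12 methyltransferases that use S-adenosylmethionine, 3 were higher and 5 lower, where 20.3% and 26.8% of all genes were. The counts were 8 and 1 when scaled to all probe sets, beside 3971 and 325 of 5322 genes. They were 3 and 1 without further scaling, beside 928 and 389 of 5338 genes. CHO2, the first methyltransferase of phosphatidylcholine synthesis from phosphatidylethanolamine, was lower, with signals of 2786 and 2560 in NBRC1950 against 5762 and 5777 in X2180, a difference of -1.11 (limma adjusted p = 1.99e-05). PPM1, which methylates the catalytic subunit of protein phosphatase 2A, stood at -0.64, and was not called when scaled to all probe sets (-0.10) or without further scaling (-0.43). COQ3, of ubiquinone synthesis, and SET1, the histone H3 lysine methyltransferase, were each higher by 0.59.

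The partners of Met4 differed among themselves. CBF1, the helix-loop-helix protein that binds DNA with Met28 and Met4 and also acts at centromeres, was lower, with signals of 419 and 438 in NBRC1950 against 1102 and 1060 in X2180. The difference was -1.33 ± 0.08 (SE; limma adjusted p = 1.82e-05), and 4.87% of all genes were called as lower by at least 2-fold. CDC53, the cullin of the SCF ligase that contains Met30, was higher by 0.40. SKP1, the adaptor that holds Met30, was lower at -0.27, had 0.27 when scaled to all probe sets, and lost its call without NBRC1950 replicate 1 (limma adjusted p = 0.102) or NBRC1950 replicate 2 (0.0588). GCN4, the activator of amino acid synthesis, which also acts on sulfur genes, was at -0.04 (95% interval from -0.21 to 0.13, limma adjusted p = 0.666).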

How the data were processed

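For each of 4 arrays, 2 per strain, the authors deposited a linear intensity for every probe set. GCOS is the only tool named, per the submitters' processing notes, and its settings are not given in the sources used here. Of 10928 probe sets, 5498 carry 1 S. cerevisiae gene in the array's annotation, matched by gene identifier to the R64 gene table. The 5216 that name no S. cerevisiae gene and are no controls gave the background. Each array was scaled to a common median of 973.6 over the 5498 probe sets, floored at 4.57, the median background, and converted to log2. The 5377 probe sets with a mean above 16.2, the 90th background percentile, were tested (5335 genes).

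The contrast of the strains was fitted in R 4.3.3 by lmFit and eBayes of limma 3.58.1, with an intensity trend, with Benjamini-Hochberg adjustment over all tested probe sets, after a test on simulated arrays. The brightest probe set stood for a gene. The 2 arrays per strain limit the precision, and the fit had 2 residual degrees of freedom. Same-numbered arrays were not taken as pairs, since their deviations correlated at only 0.07. Named genes are the 10 members, up to 4 called genes of each list by size, and MET17, CBF1, GCN4, SAH1 and MET13. STE3, MET12, SRB4, ACT1, SPT15, WBP1 and the flanking genes were named after their values were seen. The members and lists were chosen with earlier results of these data known. Promoter and protein sequences were not analysed here, and neither was the search for regulator motifs.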

Additional observations from a re-analysis of the deposited data

How the results depend on the processing

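The 5 higher calls and the 1 lower call among the 10 genes were each kept without a floor, with background subtracted, with either other filter, without the eBayes trend and without any single array. With the replicate block, 1161 genes were higher and 1519 lower, and it changed no call among the 10. Scaled to all probe sets, 3971 genes were higher and 325 lower, 9 of the 10 were higher and 0 lower. Without further scaling 389 genes were lower. With quantile normalization 0 of the 10 were lower, beside 1197 of 5339 genes. In limma at an unadjusted p under 0.05, 0 were lower when scaled to all probe sets and 1 with quantile normalization. The methods' t-test called 2078 genes at an unadjusted p under 0.05, 5 of the 10 as higher and 0 as lower; after Benjamini-Hochberg it called 220 genes higher and 315 lower, and 1 (MET2) and 0 of the 10. STR3 had an unadjusted p of 0.0700 there. Scaled to all probe sets, MET4 stood at 0.42, MET31 at 0.43, SAM1 at 0.45, THR1 at 0.061, HOM2 at 0.16, HOM6 at 0.22, HOM3 at 0.25, STR2 at 0.12, CYS4 at 0.14, FOL2 at 0.23, SKP1 at 0.27 and GCN4 at 0.50, all on the other side of 0 from the values above. Without further scaling this held for MET4 (0.082), MET31 (0.090), SAM1 (0.11) and GCN4 (0.17), and with quantile normalization for SAM1 (0.0082) and GCN4 (0.069). The first 2 of these settings change each array by 1 factor and so move all its genes together. The cause of the shifts under quantile normalization was not tested. With 1 array left out, GCN4 ranged from -0.11 to 0.025 and SAH1 from -0.0031 to 0.081. The ratio of MET31 to MET32 changed by -1.19 to -0.94 over the alternatives run, and that of SAM1 to SAM2 by -0.62 to -0.46; these were added after the data were seen. With 2 arrays per strain, their number limits the precision.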
